A study of Homo sapiens with 60 samples.

Results

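Gene expression was compared between 2 herbal formulas given to the same cells at the same dose: the water extract of Sayeok-tang at 500 µg/mL (3 libraries) and the water extract of Bojungikgi-tang at 500 µg/mL (2 libraries). These were all the libraries whose labels name either extract at that dose, 5 of the 60 of the series. The cells were A549, an established human lung adenocarcinoma line of epithelial origin, and RNA was taken 24 h after the extract was added. The same formulas at 100 and 20 µg/mL gave 10 further libraries with the same numbers per dose. A vehicle group of 3 libraries received DMSO alone, at a concentration on which the sample labels and the series text disagree. The labels name 1 batch for all 60 libraries, but the vehicle carries another set number than the formulas, so handling and treatment cannot be told apart in a comparison with vehicle. The formulas carry 1 set number between them. The Bojungikgi-tang libraries are numbered 2 and 3 and the Sayeok-tang libraries 1, 2 and 3, and the labels do not say whether the numbers stand for separate cultures, so p-values here weigh a difference only against the scatter of these libraries, part or all of which may be technical.

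Both names belong to decoctions of East Asian medicine. Sayeok-tang is classically made from processed aconite root, dried ginger and licorice. Bojungikgi-tang is classically made from astragalus, ginseng, atractylodes, licorice, angelica root, citrus peel, cimicifuga and bupleurum. Licorice is thus a component of both recipes, and the labels do not list the components of the extracts used here. Comparing the formulas directly asks which genes differ in level between cells given one and cells given the other, without using the level in vehicle.

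Library totals were 23.08 to 26.82 M counts (M stands for 1e6) in Sayeok-tang and 22.54 and 30.58 M in Bojungikgi-tang, within the 17.51 to 38.54 M of the series. Transcripts of the mitochondrial genome took 10.2 to 11.1% of counts in Sayeok-tang, 9.89 and 10.8% in Bojungikgi-tang and 9.05 ± 0.417% in vehicle (SD, n = 3). All 12 A549 markers were detected, with a summed level of 18970 to 19056 CPM (counts scaled to a TMM-adjusted library total of 1e6) in Sayeok-tang, 20454 to 20852 in Bojungikgi-tang and 21813 to 22795 in vehicle. The 11 immune markers summed to 12.1 to 15.9 CPM in Sayeok-tang and 12.1 to 12.2 in Bojungikgi-tang, with CD3E and MS4A1 at 0 in both. The 10 fibroblast and muscle markers summed to 32.9 to 35.2 CPM in Sayeok-tang and 38.5 to 40.7 in Bojungikgi-tang, with DCN at 0 in both. The 8 markers of other lung epithelium summed to 9.40 to 11.0 and 12.1 to 12.6 CPM, with SFTPA1 at 0 in both. Of the 8 endothelial markers 5 were at 0 in both formulas, PECAM1, VWF, KDR, CLEC14A and ERG, and the sums were 23.7 to 24.7 and 22.8 to 25.0 CPM. In each list of other cell types most of the sum came from 1 gene. CD68 stood at 8.87, 12.3 and 12.1 CPM in Sayeok-tang and 8.52 and 8.94 in Bojungikgi-tang. COL1A1 stood at 25.6, 23.9 and 23.8 against 30.1 and 28.6 CPM. TP63 stood at 9.13, 8.65 and 7.15 against 9.72 and 10.1 CPM. EGFL7 stood at 23.6, 24.7 and 23.7 against 22.8 and 24.9 CPM. The part of the differences between these libraries in the results was not tested.

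At 500 µg/mL, 343 of the 16723 genes tested differed between the formulas at an adjusted p under 0.05 (edgeR quasi-likelihood F-test), which is 2.05%. Of these, 183 (1.09%) were higher and 160 (0.957%) lower in Sayeok-tang, and 329 were protein coding. The differences were small: the median size was 0.24 on the log2 scale, against 0.076 over all genes tested, 4 genes differed by at least 2-fold and 21 by at least 1.5-fold. In 342 of the 343 the libraries of the formulas did not overlap, which held for 28.8% of all genes tested. The count was 208 without Bojungikgi-tang library 2, with 159 of the 343 kept, and 190 without its library 3, with 163 kept. It was 244, 232 and 236 without Sayeok-tang library 1, 2 and 3. In the fits without a Bojungikgi-tang library, all 343 kept their direction. Nothing is read from this, since libraries that do not overlap leave little room for a turn.

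The enzymes of cholesterol synthesis were higher in Sayeok-tang along most of the pathway. Cells make cholesterol from acetyl-CoA through mevalonate, farnesyl pyrophosphate, squalene and lanosterol. When sterols in the endoplasmic reticulum are low, the transcription factor SREBP2 is released from the INSIG proteins, processed and moved to the nucleus, where it activates the genes of this pathway and of low-density lipoprotein uptake. Of the 21 enzymes, all tested, 14 were higher and 1, GGPS1, was lower, with a median log2 difference of 0.22 against −0.0003 over all genes. Without Bojungikgi-tang library 2, 9 were higher.

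HMGCS1, which makes HMG-CoA, stood at 233, 238 and 237 CPM in the Sayeok-tang libraries and at 208 and 218 CPM in the Bojungikgi-tang libraries. Its log2 difference was 0.15 ± 0.039 (SE; adjusted p = 0.0241). The call was lost without Bojungikgi-tang library 2 (adjusted p = 0.31) and without Sayeok-tang library 2 (0.0963) or 3 (0.079). MVK, the mevalonate kinase, differed by 0.27 ± 0.06, and IDI1, the isopentenyl diphosphate isomerase, by 0.20 ± 0.046. MVK was lost without Bojungikgi-tang library 3 (adjusted p = 0.142) and IDI1 without library 2 (0.179). PMVK at −0.079 and MVD at 0.22 did not pass.

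FDPS, the farnesyl diphosphate synthase, was higher by 0.29 ± 0.038 (adjusted p = 3.42e-06). GGPS1, which leads from farnesyl pyrophosphate, the product of FDPS, towards geranylgeranylated proteins instead of sterols, was the lower member, at −0.23 ± 0.061. It lost its call in 4 of the 5 fits without a library, the exception being that without Sayeok-tang library 2. FDFT1 (ENSG00000079459), the squalene synthase that commits the pathway to sterols, stood at 148, 145 and 141 CPM in Sayeok-tang and at 114 and 118 in Bojungikgi-tang. The vehicle libraries were at 114, 116 and 116 CPM, so Bojungikgi-tang lay at the level of vehicle and Sayeok-tang above both. Its log2 difference was 0.32 ± 0.033 (adjusted p = 3.30e-08). SQLE, squalene epoxidase, was higher by 0.27 ± 0.034, and LSS, lanosterol synthase, by 0.35 ± 0.049.

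Among the enzymes that turn lanosterol into cholesterol, MSMO1 (ENSG00000052802, chromosome 4, 165327623 to 165343160), a sterol methyl oxidase, stood at 53.9, 55.5 and 54.4 CPM in Sayeok-tang and at 40.0 and 43.1 in Bojungikgi-tang, with vehicle at 40.4 to 41.8. Its log2 difference of 0.40 ± 0.048 was the largest in the list (adjusted p = 6.38e-07). DHCR7 (ENSG00000172893, chromosome 11, 71428193 to 71452868), which catalyses a late reduction, stood at 119, 129 and 118 CPM against 93.4 and 95.8 CPM (0.36 ± 0.041, adjusted p = 1.43e-07). In all of these genes each Sayeok-tang library lay above both Bojungikgi-tang libraries. CYP51A1, the lanosterol demethylase, was higher by 0.30 ± 0.035. NSDHL (0.17 ± 0.046) and HSD17B7 (0.33 ± 0.084) passed as well. NSDHL kept its call in only 1 of 11 alternative analyses, and HSD17B7 in 6 of 11. TM7SF2, EBP, SC5D and ACAT2 had values of 0.084 to 0.32 and did not pass. In total 8 of the 14 kept the call under every alternative tried, among them FDPS, FDFT1, SQLE, LSS, CYP51A1, MSMO1 and DHCR7, which act at farnesyl pyrophosphate synthesis or after it.

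**Figure D1:**
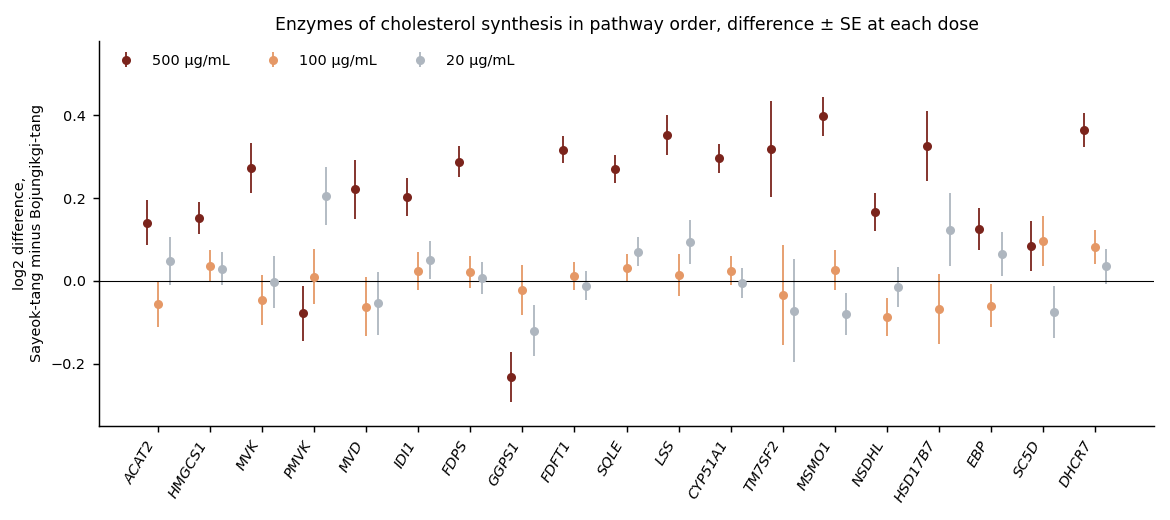
Log2 difference between Sayeok-tang and Bojungikgi-tang (y axis, points ± SE derived from the test) at 500, 100 and 20 µg/mL. The cholesterol synthesis enzymes shown are in pathway order (x axis). At 500 µg/mL all but PMVK and GGPS1 lie above 0, and at 100 and 20 µg/mL the medians over the list of 21 are 0.012 and 0.007.

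The regulators of this pathway moved in part. SREBF2 (ENSG00000198911, chromosome 22, 41833079 to 41907308), the gene of SREBP2 itself, stood at 123, 128 and 121 CPM in Sayeok-tang and 107 and 99.0 in Bojungikgi-tang (log2 difference 0.26 ± 0.039, adjusted p = 2.71e-05). INSIG1, which holds SREBP in the endoplasmic reticulum and is itself a target, was higher by 0.35 ± 0.05 (adjusted p = 1.57e-05). STARD4, a cytosolic sterol carrier, was higher by 0.21 ± 0.058 (adjusted p = 0.0409), but lost its call in every fit without a library (adjusted p of 0.0739 to 0.31). These 3 were the called members of the 10 tested in the list of SREBP2 regulators and cholesterol uptake. SREBF1, the related gene for SREBP1, was at 0.037 ± 0.038. Of the 6 tested genes of sterol efflux 0 were called by edgeR or DESeq2, and 2 had an unadjusted p under 0.05 (edgeR). Over all 16723 genes tested 2003 had.

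The SREBF2 promoter holds the core of the sterol regulatory element, the sequence to which SREBP proteins bind, and is shown because it was the promoter of a called sterol regulator that did. The sequence below is from RefSeq on GRCh38.p14, chr22:41832962-41832990 on the plus strand, with the core TCACNCCAC in capitals and 10 bases on each side. It starts 133 bases before the transcript start.
SREBF2: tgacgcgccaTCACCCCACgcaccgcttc
Windows of 300 bases (250 before to 50 after the start) were searched on both strands, and 1.12% of 34796 RefSeq windows held this core. It was found in 0 of the 16 cholesterol synthesis genes with a window and in 1 of 9 genes of the regulator list.

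Genes for fatty acid synthesis were higher in the steps of desaturation. SCD (ENSG00000099194, chromosome 10, 100347124 to 100364834), which puts the first double bond into saturated fatty acids, stood at 1296, 1379 and 1262 CPM in Sayeok-tang and 1017 and 1008 in Bojungikgi-tang. With vehicle at 905 to 957 CPM, the Bojungikgi-tang libraries lay above each vehicle library without passing the test against it (adjusted p = 0.0728), and the Sayeok-tang libraries above both. The log2 difference between the formulas was 0.37 ± 0.036 (adjusted p = 4.63e-09). FADS1 and FADS2, the desaturases of polyunsaturated fatty acids, were both higher by 0.33 (SE 0.034 and 0.035). FADS1 lies inside the span of FADS2 on chromosome 11, and whether the counting used strand is not given in the sources used here, so their reads may be shared in part. FASN, the fatty acid synthase, was higher by 0.20 ± 0.04 (adjusted p = 0.0028) and not without Bojungikgi-tang library 3 (adjusted p = 0.287). These were the 4 called of 15 tested, with 0 lower and a median of 0.081. In the list of lipid droplet genes and fatty acid oxidation, PLIN2 (0.30 ± 0.075) and CPT1A (0.24 ± 0.049) were higher and PDK4 (−0.26 ± 0.064) lower of 23 tested. CPT1A lost its call without Bojungikgi-tang library 3 (adjusted p = 0.25). PLIN2 and PDK4 lost theirs without Bojungikgi-tang library 2 (0.36 and 0.421), Sayeok-tang library 2 (0.115 and 0.0973) or Sayeok-tang library 3 (0.0636 and 0.104).

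Chemokines, the secreted proteins that attract leukocytes, were higher in Sayeok-tang. Many of their genes are activated by NF-kB, a transcription factor that is held in the cytoplasm by IkB proteins until an inflammatory signal releases it. Of 21 chemokine and cytokine genes 11 passed the filter on low counts, and 5 of these were higher and 0 lower, with a median log2 difference of 0.46. DESeq2 called 3 and gave no adjusted p for 4, CXCL8 and CXCL1 among them. The 10 below the filter, among them CXCL6, CXCL10, IL6, IL1B and TNF, had at most 8 counts in any of the 5 libraries.

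CXCL5 (ENSG00000163735, chromosome 4, 73995642 to 73998779), a neutrophil attractant, stood at 164, 182 and 173 CPM in the Sayeok-tang libraries, 115 and 114 in the Bojungikgi-tang libraries and 83.5, 85.9 and 85.4 in vehicle. The 3 groups did not overlap, with Bojungikgi-tang between the other two. The log2 difference between the formulas was 0.59 ± 0.038 (adjusted p = 1.80e-13), the lowest p among the genes named here. CXCL8 (interleukin-8) stood at 5.53, 6.78 and 6.53 CPM against 3.04 and 2.73 CPM, with vehicle at 0.809 to 1.31 (1.11 ± 0.16, adjusted p = 1.77e-05). CXCL1 stood at 5.90, 5.91 and 5.57 CPM against 3.40 and 2.41 CPM, with vehicle at 0.722 to 1.23 (0.97 ± 0.17, adjusted p = 2.70e-04). Both showed the same order of the groups as CXCL5. IL32, a cytokine that induces other inflammatory cytokines, stood at 9.80, 10.2 and 10.8 CPM against 5.73 and 6.08 CPM (0.80 ± 0.11, adjusted p = 4.17e-06), with vehicle at 4.17 to 5.15. CCL2, a monocyte attractant, was higher by 0.46 ± 0.094 and lost its call without Bojungikgi-tang library 2 (adjusted p = 0.0612). CXCL2 (0.38 ± 0.13) and CXCL3 (0.46 ± 0.17) did not pass. CXCL1, CXCL2 and CXCL3 are close paralogs, so reads could be divided between them by the counting.

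Several genes of the CXC chemokine family hold a kappa B site, the sequence bound by NF-kB, shortly before their starts. The stretches below, from RefSeq on GRCh38.p14 and read on the strand of each gene, show it in capitals (GGAATTTCC) with 10 bases on each side. They are printed so that the called and uncalled members can be set side by side.
CXCL8: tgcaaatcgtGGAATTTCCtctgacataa
CXCL5: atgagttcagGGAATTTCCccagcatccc
CXCL6: ctgagttcagGGAATTTCCccagcatccc
CXCL1: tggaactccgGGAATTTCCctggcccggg
CXCL2: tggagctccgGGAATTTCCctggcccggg
CXCL3: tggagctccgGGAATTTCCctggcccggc
They lie at chr4:73740468-73740496 (CXCL8, plus strand), chr4:73998749-73998777 (CXCL5, minus), chr4:73836579-73836607 (CXCL6, plus), chr4:73869305-73869333 (CXCL1, plus), chr4:74099254-74099282 (CXCL2, minus) and chr4:74038749-74038777 (CXCL3, minus). The site starts 91, 90, 89, 78, 77 and 78 bases before the start in this order. Of the called genes, CXCL8, CXCL5 and CXCL1 hold it, as do CXCL2 and CXCL3, which did not pass, and CXCL6, which was at 1 count or fewer. In the list 7 of 16 genes with a window held the site, and 3 of the 4 called ones, against 0.463% of all RefSeq windows. Some genes have several windows and several of the holders are close paralogs, so nothing is read from these shares. The seventh was CXCL10, which holds it on the other strand and had 0 counts in these 5 libraries. The other 9, among them the chemokine genes CCL20 and CCL28 and the called IL32, have a window without these letters.

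Members of the NF-kB signalling chain themselves showed 2 calls of 22 tested, both higher. TNFAIP3 (A20), a deubiquitinase that dampens NF-kB, differed by 0.42 ± 0.1 (adjusted p = 0.0138), and BIRC3, an inhibitor of apoptosis in the same pathway, by 0.22 ± 0.055 (adjusted p = 0.0243). Neither call held throughout: without Sayeok-tang library 1 (adjusted p of 0.1 and 0.123) or Bojungikgi-tang library 2 (0.102 and 0.508) 0 of 22 were called, and DESeq2 called 0. TNFAIP3 was also lost without Sayeok-tang library 2 (0.0739) or Bojungikgi-tang library 3 (0.143), and BIRC3 without Sayeok-tang library 3 (0.112). NFKBIA, the IkB-alpha inhibitor, was at 0.12 ± 0.054 and did not pass. In the list 6 of 19 genes with a window held the kappa B site, and 0 of the 2 called ones.

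Secreted liver-type proteins differed in both directions. Fibrinogen, the clotting protein that hepatocytes and some lung carcinoma cells secrete, is built of chains from the neighbouring genes FGB, FGA and FGG on chromosome 4. FGB (ENSG00000171564, 154562956 to 154571086) stood at 102, 105 and 99.6 CPM in Sayeok-tang, 147 and 149 in Bojungikgi-tang and 158, 162 and 167 in vehicle. Its log2 difference was −0.54 ± 0.036 (adjusted p = 4.74e-13), and the Bojungikgi-tang libraries lay just below vehicle. FGA (ENSG00000171560, 154583126 to 154590766) stood at 100.1, 102 and 98.4 CPM against 134 and 133 CPM (−0.42 ± 0.038, adjusted p = 1.98e-09). FGG (ENSG00000171557, 154604134 to 154612967) differed by −0.45 ± 0.073 (adjusted p = 0.00238), with the call lost without Bojungikgi-tang library 2 (0.069). All 3 chains were thus lower in Sayeok-tang.

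Ceruloplasmin (CP, −0.46 ± 0.12), a copper-carrying ferroxidase, was also lower. C3, the central complement component, was higher, at 55.6, 59.4 and 55.6 CPM against 44.5 and 42.0 CPM, with vehicle at 29.5 to 32.2 (0.39 ± 0.05, adjusted p = 2.21e-06). The complement and acute phase list thus had 1 member higher and 5 lower of 16 tested, with a median of −0.23. The count of lower members was 2 without Bojungikgi-tang library 2 and 3 without Sayeok-tang library 3, the call of CP (adjusted p of 0.49 and 0.183) being lost in both. CP was also lost without Sayeok-tang library 1 (0.0805), with all 60 libraries fitted together (0.076) and in a fit of the 5 libraries alone (0.0689). DESeq2 did not call it either (0.131). Vitronectin (VTN), another secreted plasma protein, stood at 12.4, 12.8 and 11.6 CPM against 17.8 and 17.4 CPM (−0.52 ± 0.081, adjusted p = 6.47e-05).

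Genes of the amino acid response were higher. ATF4 is a transcription factor whose translation increases when amino acids or endoplasmic reticulum capacity run short, and it activates genes for amino acid synthesis, uptake and tRNA charging together with its own feedback inhibitors. TRIB3, a pseudokinase that feeds back on ATF4, stood at 92.4, 97.2 and 89.0 CPM in Sayeok-tang and 71.1 and 68.3 in Bojungikgi-tang (0.41 ± 0.05, adjusted p = 1.35e-06). The Bojungikgi-tang values lay inside the vehicle range of 64.2 to 75.0 CPM, and the Sayeok-tang values lay above it. STC2, a secreted stress-induced glycoprotein, was higher by 0.42 ± 0.051 (adjusted p = 7.19e-07), NIBAN1 by 0.52 ± 0.079 (adjusted p = 3.28e-05) and DDIT4, an inhibitor of mTORC1, by 0.22 ± 0.037 (adjusted p = 2.95e-04). CEBPG, a dimer partner of ATF4, completed the 5 called of 16 tested (0 lower) with 0.14 ± 0.037, and lost its call in each fit without a library (adjusted p of 0.0524 to 0.238). ATF4 itself (0.12 ± 0.038, adjusted p = 0.101) and DDIT3 (0.0018 ± 0.1), which encodes CHOP, did not pass. The amino acid response core TTGCATCA was found in 3 of 16 genes of this list with a window, and in 1 of the 5 called ones, CEBPG. The others were CHAC1, which was not called, and FGF21, which was below the filter on low counts. Of all windows 0.871% held it. Some genes have several windows, so the share of genes and the share of windows are not alike.

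Enzymes that make serine, asparagine and one-carbon units were higher in 8 of 14, with 0 lower and a median of 0.18. ASNS, the asparagine synthetase, stood at 163, 161 and 162 CPM against 128 and 141 CPM (0.27 ± 0.039, adjusted p = 1.99e-05). PSAT1 (0.22 ± 0.035, adjusted p = 9.16e-05) and PHGDH (0.22 ± 0.041, adjusted p = 0.00109) catalyse serine synthesis, and SHMT2 (0.18 ± 0.035, adjusted p = 0.00123) passes its carbon to folate in mitochondria. These 4 kept their call under every alternative. MTHFD2 and ALDH1L2, of the mitochondrial folate pathway, PYCR1, of proline synthesis, and CBS, of transsulfuration, had values of 0.17 to 0.32 and lost the call without at least 1 library. Without Bojungikgi-tang library 2, 5 of the list were called. Related lists had 1 call each: SLC38A1 (0.16 ± 0.041) of 12 amino acid transporters, AARS1 (0.16 ± 0.036) of 20 tRNA synthetases and HSPA5 (0.17 ± 0.034), the BiP chaperone, of 22 genes of the unfolded protein response. All 3 were lost without Bojungikgi-tang library 2 (adjusted p of 0.227, 0.102 and 0.112). SLC38A1 was lost without each of the other libraries too (0.0769 to 0.142), and AARS1 without Sayeok-tang library 2 (0.0664) or Bojungikgi-tang library 3 (0.0889).

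Some targets of the aryl hydrocarbon receptor (AhR), a sensor of planar aromatic compounds, were higher. CYP1B1 (ENSG00000138061, chromosome 2, 38066973 to 38109902), a monooxygenase, stood at 136, 146 and 139 CPM in Sayeok-tang, 102 and 93.2 in Bojungikgi-tang and 53.7 to 57.9 in vehicle (0.52 ± 0.042 between the formulas, adjusted p = 8.31e-11). TIPARP (ENSG00000163659, chromosome 3, 156673235 to 156706770), which restrains the receptor, stood at 73.4, 78.9 and 81.0 CPM against 53.6 and 55.7 CPM, with vehicle at 34.0 to 35.6 (0.51 ± 0.047, adjusted p = 2.88e-09). For both genes the groups formed 3 separate levels, with Bojungikgi-tang in the middle. CYP1A1, the classical target, had a low level, at 3.12, 3.09 and 2.87 CPM against 2.073 and 1.251 CPM (0.83 ± 0.19, adjusted p = 0.0129). It was lost without Bojungikgi-tang library 3 (adjusted p = 0.348) and without Sayeok-tang library 1 (0.0528). These were the 3 called of 9 tested, with a list median of 0.057 and 6 of the 9 above 0. The receptor AHR (0.035 ± 0.051), its partner ARNT (0.057 ± 0.057), its repressor AHRR (0.067 ± 0.14) and the target NQO1 (−0.07 ± 0.031) did not pass. The xenobiotic response element core TTGCGTG was in the window of 0 of the 9 list genes that have one (CYP1B1 has none, while CYP1A2 and LRAT, not tested, do) and in 1.16% of all windows.

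NRF2, which activates antioxidant genes and is constitutively active in A549 cells through an inactivating mutation of its inhibitor KEAP1, had targets on both sides, with 1 higher and 3 lower of 22. HMOX1, heme oxygenase, was at 208, 202 and 205 CPM against 172 and 173 CPM (0.25 ± 0.04, adjusted p = 1.08e-04). The aldo-keto reductases AKR1C1 (−0.24 ± 0.037), AKR1C2 (−0.15 ± 0.034) and AKR1C3 (−0.19 ± 0.045) were lower. They are paralogs that can share reads. AKR1C2 (adjusted p = 0.271) and AKR1C3 (0.21) lost their calls without Bojungikgi-tang library 3, AKR1C2 also without Sayeok-tang library 3 (0.0703), and AKR1C3 also without Bojungikgi-tang library 2 (0.122) or Sayeok-tang library 2 (0.0812). DESeq2 called 5 of the list lower. GPX2, a glutathione peroxidase that is not a member of this list, stood at 164, 153 and 139 CPM against 222 and 202 CPM (−0.48 ± 0.087, adjusted p = 0.0139). It lost its call without Bojungikgi-tang library 2, where its log2 difference was −0.41, and in a fit of the 5 libraries alone (0.0588).

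**Figure D2:**
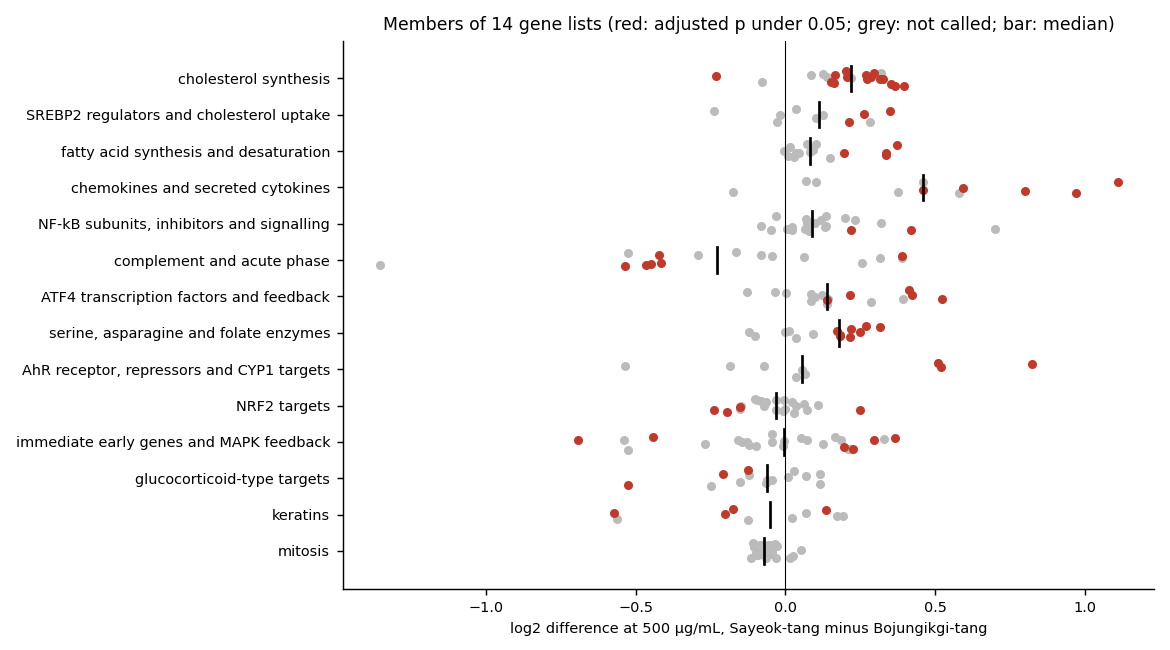
Log2 difference at 500 µg/mL (x axis) of each tested member of 14 gene lists (y axis), with called members in red, others in grey and the list median as a bar. The red points of the sterol, chemokine, ATF4 and serine lists lie to the right of 0 apart from GGPS1, and the medians run from −0.23 (complement and acute phase) to 0.46 (chemokines).

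Of the higher genes that averaged 5 CPM or more over the 5 libraries, the one that differed most was GREM1 (ENSG00000166923, chromosome 15, 32717974 to 32745107), a secreted antagonist of bone morphogenetic proteins. It stood at 14.5, 15.0 and 14.6 CPM in Sayeok-tang, 7.55 and 7.82 in Bojungikgi-tang and 4.82 to 5.19 in vehicle. The groups were well separated, and the log2 difference between the formulas was 0.93 ± 0.089 (adjusted p = 4.63e-09). Of the 20 genes of its pathway tested, BMP6 was lower (−0.40 ± 0.11, adjusted p = 0.0401), a call kept in 3 of 11 alternatives.

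Other genes among the 12 with the largest differences included a growth factor and a kinase substrate. TGFA, a ligand of the epidermal growth factor receptor, differed by 0.57 ± 0.11, CDCP1, a membrane substrate of Src kinases, by 0.62 ± 0.12, and NAV3, a microtubule-associated protein, by 0.56 ± 0.11. These 3 lost their call without Bojungikgi-tang library 2 (adjusted p of 0.0593, 0.126 and 0.0761). TMEM156 differed by 0.51 ± 0.074 (adjusted p = 1.58e-05). SERPINB8, a protease inhibitor, differed by 0.52 ± 0.13 (adjusted p = 0.0178), a call lost in 4 of the 5 fits without a library, all but that without Sayeok-tang library 1 (adjusted p of 0.0508 to 0.172). Of 29 TGF-beta targets and matrix genes 3 were higher, among them CCN1 (0.22 ± 0.049), and 1, COL1A1 (−0.27 ± 0.058), was lower. CCN1 and COL1A1 were lost without Bojungikgi-tang library 2 (adjusted p of 0.17 and 0.156) and CCN1 without Sayeok-tang library 3 (0.0519).

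Immediate early genes, which respond to growth factor and MAP kinase signals within minutes to hours, were split. FOSL1 (0.37 ± 0.059, adjusted p = 1.10e-04) and JUN (0.23 ± 0.057), subunits of AP-1, the phosphatase DUSP4 (0.20 ± 0.036) and PHLDA1 (0.30 ± 0.042, adjusted p = 1.50e-05) were higher. The orphan nuclear receptors NR4A1 (−0.44 ± 0.061, adjusted p = 8.71e-06) and NR4A3 (−0.69 ± 0.13, adjusted p = 0.00108) were lower. NR4A1 stood at 19.04, 19.7 and 18.5 CPM in Sayeok-tang, 27.3 and 24.2 in Bojungikgi-tang and 37.0 to 39.7 in vehicle, again with Bojungikgi-tang in the middle. The 4 higher and 2 lower were called of 26 tested, with a median of −0.0055. JUN was not called by DESeq2 (adjusted p = 0.0598) or by edgeR with all 60 libraries fitted together (0.0767). Without Bojungikgi-tang library 3, 2 were higher, DUSP4 (adjusted p = 0.0521) and JUN (0.403) being lost. JUN was also lost without Sayeok-tang library 1 (0.0685) or 3 (0.11), and FOSL1 without Bojungikgi-tang library 2 (0.0857).

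Of 14 targets of glucocorticoid-type receptors KLF9 (−0.53 ± 0.13), SGK1 (−0.21 ± 0.048) and ERRFI1 (−0.13 ± 0.033) were lower. Without Bojungikgi-tang library 2, 0 of the 3 were called (adjusted p of 0.248, 0.076 and 0.135), and 1 each without Bojungikgi-tang library 3 or Sayeok-tang library 3. FKBP5, a sensitive glucocorticoid target, stood at 30.3, 30.7 and 30.7 CPM against 32.8 and 30.8 CPM and was not called (−0.064 ± 0.053).

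Among the lower genes, H19 (ENSG00000130600, chromosome 11, 1995176 to 2001470), an imprinted long non-coding RNA, stood at 42.3, 41.0 and 38.1 CPM in Sayeok-tang, 67.7 and 53.8 in Bojungikgi-tang and 78.7 to 93.1 in vehicle. The log2 difference was −0.60 ± 0.09 (adjusted p = 0.0023). The Bojungikgi-tang libraries differed from each other more than those of Sayeok-tang did, and in a fit of only the 5 libraries the call was lost (adjusted p = 0.12). KRT4 (ENSG00000170477, chromosome 12, 52806549 to 52814551), a keratin of stratified epithelia, stood at 15.81, 18 and 13.02 CPM against 23.6 and 22.7 CPM (−0.57 ± 0.08, adjusted p = 2.06e-05). The keratins of simple epithelia KRT8 (−0.20 ± 0.031, adjusted p = 5.78e-05) and KRT18 (−0.18 ± 0.037, adjusted p = 0.00558) were lower too, and KRT7 was higher (0.14 ± 0.034, adjusted p = 0.0174), so 3 of 10 tested keratins were lower and 1 higher. The spans of KRT8 and KRT18 overlap on chromosome 12, and KRT18 was lost without Bojungikgi-tang library 2 (0.0656) or 3 (0.106). KRT7 was lost without Bojungikgi-tang library 3 (0.291), Sayeok-tang library 2 (0.0677) or Sayeok-tang library 3 (0.141). KRT8, KRT18, AKR1C1, AKR1C2 and ALDH1A1 were the 5 lower of the 12 A549 markers, and KRT7 the higher one. Without Bojungikgi-tang library 3, 2 were lower.

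Genes of the tight junction differed by member: claudin CLDN1 (0.34 ± 0.036, adjusted p = 2.85e-08) and occludin OCLN (0.30 ± 0.06, adjusted p = 0.00269) were higher, and CLDN2, a claudin that forms cation pores, was lower (−0.46 ± 0.061, adjusted p = 3.42e-06). OCLN was lost without Bojungikgi-tang library 3 (adjusted p = 0.0599). The other lower genes with the largest differences were AQP3, a water and glycerol channel, at 4.79, 4.39 and 3.99 CPM against 7.81 and 6.03 CPM (−0.67 ± 0.15), INSL4, a relaxin-like peptide (−0.56 ± 0.086), the membrane proteins TM4SF4 (−0.51 ± 0.072) and GDPD5 (−0.50 ± 0.1), BCAS1 (−0.52 ± 0.11), the secreted C1QTNF6 (−0.49 ± 0.062) and an unnamed gene, ENSG00000219410 (chromosome 12, 6663260 to 6672069; −0.48 ± 0.11). AQP3 and GDPD5 lost their call without Bojungikgi-tang library 2 (adjusted p of 0.326 and 0.227), AQP3 also without Sayeok-tang library 2 (0.0664) or 3 (0.0831), and BCAS1 without Bojungikgi-tang library 3 (0.0725). ENSG00000219410 lost its call in 4 of the 5 fits without a library, all but that without Sayeok-tang library 3 (0.0645 to 0.136). SLC2A3, a glucose transporter, was lower (−0.46 ± 0.061, adjusted p = 4.17e-06) and was the called member of 30 glycolysis and HIF1 genes.

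Several lists had few or no genes called between the formulas. Over all genes tested 2.05% were called, and at that share lists of this size would hold few calls. Nothing is therefore read from these counts about the processes. Of 30 mitosis genes, 20 p53 targets, 16 interferon response genes, 35 cytosolic ribosomal proteins, 13 genes of the mitochondrial genome and 31 nuclear respiratory chain genes, 0 were called by edgeR or DESeq2, which gave no adjusted p for 9 of the 16 interferon genes. At an unadjusted p under 0.05 (edgeR) there were 11, 4, 1, 2, 0 and 2 in this order, against 2003 of all 16723 genes tested. The mitosis genes ran from −0.12 to 0.052 with a median of −0.07, and 3 of the 30 were above 0. They thus lay mostly below 0 without any passing. The p53 target CDKN1A stood at 102, 105 and 98.4 CPM against 96.3 and 97.0 CPM (0.075 ± 0.038, adjusted p = 0.442). Of the cytosolic heat shock proteins 1 of 22 was called, DNAJB4 (−0.20 ± 0.056), with a list median of −0.0033. DNAJB4 was not called by DESeq2 (adjusted p = 0.0993). With edgeR it was lost with all 60 libraries fitted together (0.091) and in a fit of the 5 libraries alone (0.0739). It was lost without Bojungikgi-tang library 3 (adjusted p = 0.529), Sayeok-tang library 2 (0.279) or 3 (0.0908). Of 31 DNA replication genes RRM2 (−0.15 ± 0.033) and GINS1 (−0.17 ± 0.047) were lower. Both lost their calls without Bojungikgi-tang library 3 (adjusted p of 0.11 and 0.546), and GINS1 also without each Sayeok-tang library (0.0863 to 0.21). Markers of other cell types gave 1 call, COL1A1, among the fibroblast genes.

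The vehicle libraries were set beside both formulas. Both comparisons with vehicle use the same 3 libraries, so their values are given side by side and no overlap is read from them. For the 183 genes higher in Sayeok-tang, the vehicle mean was below both formulas in 133, between them in 48 and above both in 2. For the 160 lower genes it was above both in 115 and between them in 45. Over all 16723 genes it was below both in 6299, between them in 4203 and above both in 6221. The 343 genes were chosen with the same Sayeok-tang and Bojungikgi-tang libraries, so these counts and the following ones are a description and nothing is read from them against the shares of all genes. Against vehicle, 168 of the 183 were called higher in Sayeok-tang (9.39% of all genes were) and 32 in Bojungikgi-tang (1.39%). Of the 160, 143 were called lower in Sayeok-tang (9.53%) and 41 in Bojungikgi-tang (2.33%). The median log2 difference from vehicle of the 183 was 0.31 in Sayeok-tang and 0.059 in Bojungikgi-tang, and that of the 160 was −0.32 and −0.076.

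Gene groups differed in where Bojungikgi-tang lay. Of the 21 cholesterol synthesis enzymes 14 were called higher and 2 lower against vehicle in Sayeok-tang and 0 in Bojungikgi-tang, with medians of 0.22 and −0.01. Of the 11 chemokines and cytokines tested, 9 were called higher and 1 lower in Sayeok-tang and 6 and 1 in Bojungikgi-tang, with medians of 1.03 and 0.37. For CXCL8 the log2 differences from vehicle were 2.56 and 1.45, for CXCL1 2.60 and 1.63, and for CXCL5 1.03 and 0.43, all called. CYP1B1 was at 1.33 and 0.81 and TIPARP at 1.15 and 0.64, also called in both. FGB was at −0.66 and −0.13, called in both, while DHCR7 was at 0.43 and 0.068, MSMO1 at 0.41 and 0.0089 and TRIB3 at 0.43 and 0.019, called in Sayeok-tang alone. KRT7 was at 0.0007 in Sayeok-tang and −0.14 in Bojungikgi-tang, where it was called (adjusted p = 0.014). CLDN2 was called on opposite sides, at −0.25 in Sayeok-tang and 0.21 in Bojungikgi-tang (adjusted p of 0.0012 and 0.03). In Bojungikgi-tang 622 genes were called against vehicle, 205 when its library 2 was left out and 309 when its library 3 was.

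**Figure D3:**
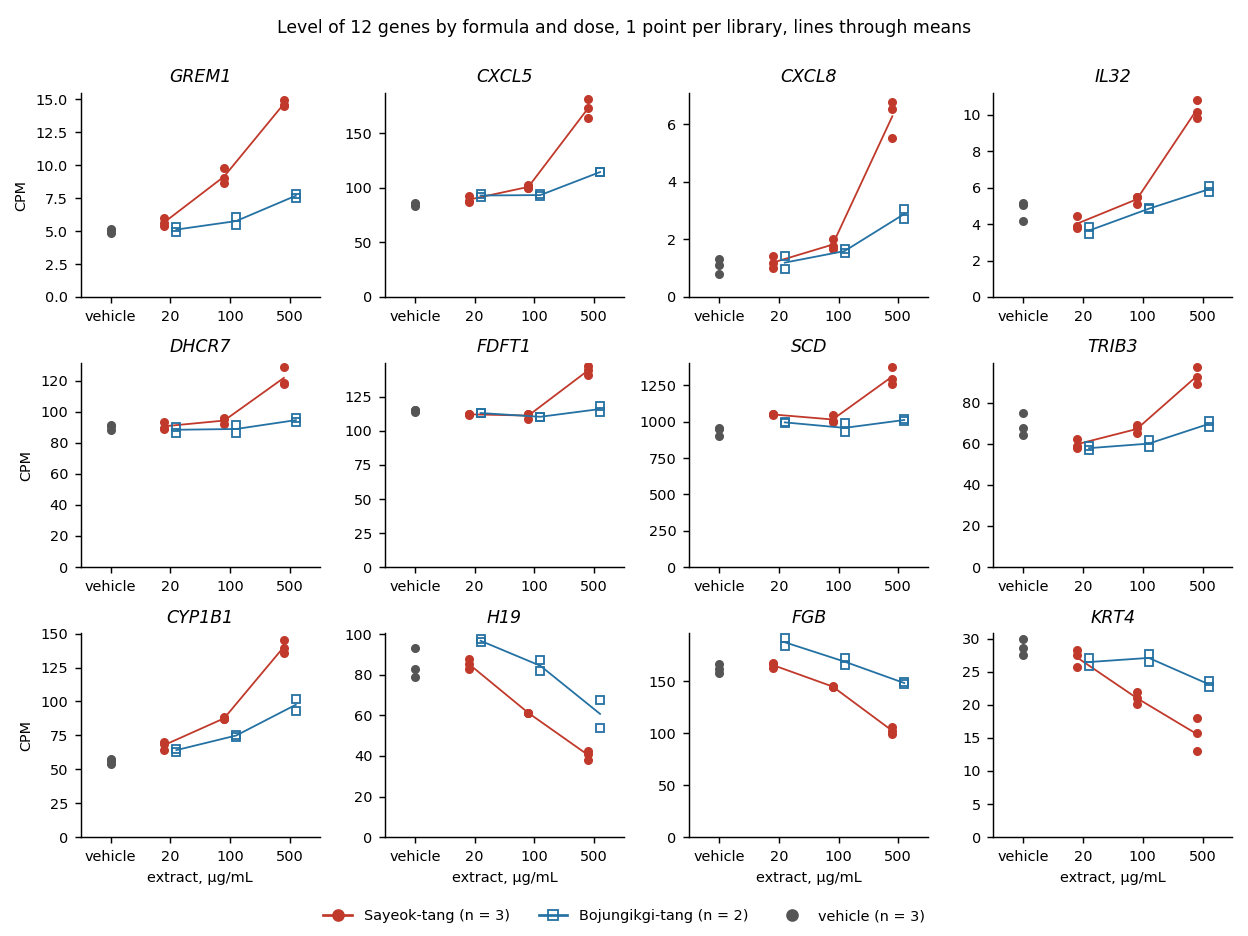
Level in CPM (y axis) of 12 genes in vehicle and at 20, 100 and 500 µg/mL (x axis), with 1 point per library (red circles Sayeok-tang, blue squares Bojungikgi-tang, grey vehicle) and lines through the group means. At 500 µg/mL the red and blue points are separate in every panel. At 20 µg/mL they overlap for CXCL5, CXCL8, IL32, DHCR7, TRIB3, CYP1B1 and KRT4, and are separate, by less than at 500 µg/mL, for GREM1, SCD, H19 and FGB, while the 5 points of FDFT1 lie between 111 and 113 CPM.

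At 100 µg/mL, in other libraries, 9 genes were higher (0.0538% of those tested) and 22 lower (0.132%) in Sayeok-tang. Of these 31, 27 were also called at 500 µg/mL in the same direction, where 2.05% of all genes tested were called. The doses share 1 fit and its estimate of the spread of each gene, so nothing is read from this overlap. GREM1 stood at 8.99, 8.65 and 9.78 CPM against 5.44 and 6.07 CPM (0.67 ± 0.096, adjusted p = 3.03e-04). CYP1B1 (0.23 ± 0.044, adjusted p = 0.00931) and TIPARP (0.28 ± 0.051, adjusted p = 0.00478) were higher, and so was RIN1 (0.41 ± 0.087, adjusted p = 0.0267), an effector of Ras, which did not pass at 500 µg/mL (0.20 ± 0.083, adjusted p = 0.275). NR4A1 stood at 26.5, 27.7 and 27.4 CPM against 35.7 and 36.6 CPM (−0.41 ± 0.054, adjusted p = 1.03e-04), and FGB (−0.22 ± 0.035), FGA (−0.21 ± 0.037), H19 (−0.47 ± 0.081) and KRT4 (−0.37 ± 0.074) were lower. AQP3 (−0.67 ± 0.14), SPDEF (−0.64), an epithelial ETS factor, and TC2N (−0.48 ± 0.09) had the largest differences downwards. Of the 21 cholesterol synthesis enzymes 0 were called at this dose and their median was 0.012, and of the 11 chemokines and cytokines 0 were called, with CXCL5 at 0.11 ± 0.039 (adjusted p = 0.503). Leaving out Bojungikgi-tang library 2 of this dose left 3 calls, leaving out its library 3 left 9, and leaving out Sayeok-tang library 1 or 3 left 18.

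At 20 µg/mL 3 genes were called, all lower in Sayeok-tang (0.0179%). They were FGB (−0.18 ± 0.035), PLA2G4A (−0.33 ± 0.063), the cytosolic phospholipase that releases arachidonic acid, and ENSG00000219410 (−0.73). All 3 were called at 500 µg/mL too, where 2.05% of all genes tested were. As at 100 µg/mL, nothing is read from this overlap. FGB stood at 163, 166 and 167 CPM against 191 and 183 CPM, with vehicle at 158 to 167, so that at this dose the Bojungikgi-tang libraries were the ones away from vehicle. PLA2G4A stood at 29.7, 34.6 and 33.7 CPM against 41.7 and 40.3 CPM. At 20 µg/mL 0 genes were called without Sayeok-tang library 1 or with all 60 libraries fitted together. FGB lost its call without each of the 5 libraries (adjusted p from 0.0722 to 0.891). PLA2G4A kept its call only without Sayeok-tang library 2 (0.0372). ENSG00000219410 kept its call without Sayeok-tang library 2 or 3 or Bojungikgi-tang library 2, and lost it without Bojungikgi-tang library 3 (adjusted p = 1.00), where the 1 gene called was another one, higher in Sayeok-tang. The call of PLA2G4A at 500 µg/mL was kept in 4 of 11 alternatives. It was lost with all 60 libraries (adjusted p = 0.217), with the replicate block (0.0875), with DESeq2 (0.103), and without Bojungikgi-tang library 2 (0.225) or 3 (0.229) or Sayeok-tang library 2 (0.17) or 3 (0.235). At an unadjusted p under 0.05 (edgeR) there were 848 of the 16723 genes tested at 20 µg/mL, 1037 at 100 µg/mL and 2003 at 500 µg/mL. A share of 0.05 of the genes would pass this threshold with no difference at all, and the count at 20 µg/mL is close to that share.

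The 343 genes called at 500 µg/mL mostly kept their direction at 100 µg/mL. The sign was the same in 308 (89.8%), against 58.31% of all genes tested, and at 20 µg/mL in 249 (72.59%), against 52.85%. The sizes were smaller: the median over the 183 higher genes was 0.24 at 500 µg/mL, 0.079 at 100 µg/mL and 0.029 at 20 µg/mL, and that over the 160 lower genes −0.24, −0.11 and −0.05.

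**Figure D4:**
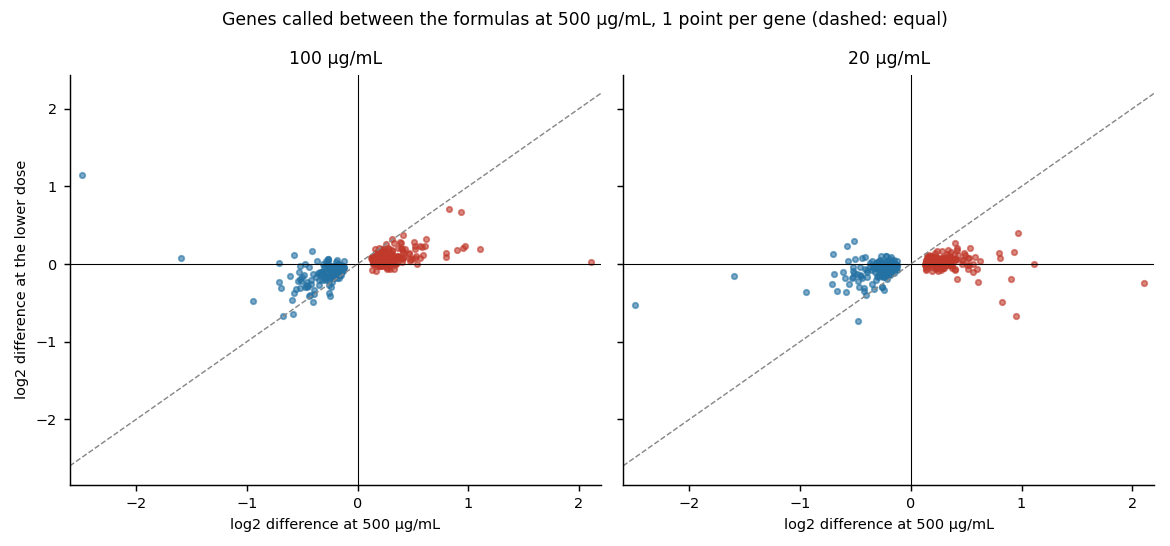
Log2 difference between the formulas at 100 µg/mL (left) and 20 µg/mL (right) on the y axis against that at 500 µg/mL on the x axis, 1 point for each of the 343 called genes (red higher, blue lower in Sayeok-tang; the dashed line marks equal differences). Most points lie between the horizontal axis and the dashed line at 100 µg/mL, where 308 keep their sign, and closer to the horizontal axis at 20 µg/mL.

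Whether the formulas diverged with dose was tested by the difference between their changes from 20 to 500 µg/mL. Of all genes tested 27 (0.161%) had a larger upward change in Sayeok-tang and 19 (0.114%) a larger downward one. This contrast holds the same 5 libraries at 500 µg/mL, so no overlap with the calls at that dose is read from it. Leaving out library 2 of low-dose Bojungikgi-tang left 18 calls, and leaving out its library 3 left 25.

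Sterol and fatty acid genes were among the calls. The cholesterol synthesis enzymes MSMO1 (0.48 ± 0.069, adjusted p = 1.20e-04), DHCR7 (0.33 ± 0.059, adjusted p = 0.00264), FDFT1 (0.33 ± 0.048, adjusted p = 1.20e-04), CYP51A1 (0.30, adjusted p = 9.42e-04) and FDPS (0.28, adjusted p = 0.00636) passed, 5 of the 21. FDFT1 stood at 113, 113 and 111 CPM in Sayeok-tang and 113 and 113 CPM in Bojungikgi-tang at 20 µg/mL, and at 113, 112 and 109 against 111 and 110 CPM at 100 µg/mL, so that its difference appeared at 500 µg/mL. SREBF2 (0.26, adjusted p = 0.0275), SCD (0.30 ± 0.05), FADS1 (0.35) and FADS2 (0.28) passed as well. So did CXCL5 (0.65 ± 0.055, adjusted p = 9.21e-10), CYP1B1 (0.44 ± 0.063), TIPARP (0.52 ± 0.072), GREM1 (0.78 ± 0.14), TRIB3 (0.37 ± 0.073), HMOX1 (0.28) and C3 (0.34) upwards, and FGB (−0.36 ± 0.05), FGA (−0.36 ± 0.053), KRT4 (−0.61 ± 0.11), KRT8 (−0.23), KRT18 (−0.26), COL1A1 (−0.37) and SLC2A3 (−0.42) downwards. H19 (−0.42 ± 0.12, adjusted p = 0.317), NR4A1 (−0.27 ± 0.081, adjusted p = 0.266) and CXCL8 (1.11 ± 0.3, adjusted p = 0.125) did not pass this test, nor did any of the 14 serine, asparagine and folate enzymes.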

How the data were processed

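RNA-seq of A549 cells was analysed from 1 table that the authors deposited. Its values are expected counts for 60675 Ensembl IDs, which the authors made with RSEM, per the submitters' processing notes and deposited without scaling. Per the submitters' processing notes, FastQC 0.11.9, Trim Galore 0.6.5, STAR 2.7.3a and RSEM 1.3.3 were used with hg38 (GRCh38). The annotation release and the strand setting are not given in the sources used here. Of 269 value columns 60 belong to the series, and 209 were not used. Expected counts (24.35% of non-zero values not whole) were rounded. Genes were filtered with filterByExpr (minimum count 10), scaled by TMM and tested with edgeR 4.0.16 (robust quasi-likelihood F-test, R 4.3.3) in 1 fit of 18 libraries and 7 groups (both formulas at 3 doses, vehicle; 11 residual degrees of freedom), with Benjamini-Hochberg adjustment over all 16723 genes and calls at an adjusted p under 0.05. Standard errors of fitted log2 differences were derived from the test. Each is the size of the log2 difference divided by the square root of its F statistic. No libraries held identical values. The script was tested on simulated data.

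The 44 gene lists (817 genes, of which 721 were tested) and the genes followed were chosen with earlier results of these data known. Named genes were the 12 higher and 12 lower with the largest difference (mean of at least 5 CPM, no overlap), from each list with 3 calls or more the 4 of lowest p, the 3 largest each way in the other dose comparisons and in the test of dose change, and 16 followed genes. Other list members named were chosen after their values were seen. Symbols came from reference tables (41209 IDs), positions from GENCODE 29 and promoter sequences from RefSeq. Alternatives were DESeq2 1.42.0, relative log expression factors, no filter, other sets of libraries, the replicate number as a block and leaving out each library. Some genes that the rule or the lists gave are not reported here, though they stay in the counts.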

Additional observations from a re-analysis of the deposited data

Results flagged for a closer look

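For 6 genes the change from 20 to 500 µg/mL differed between the formulas by edgeR's test of that difference, and these were the 3 largest each way with a mean of at least 5 CPM. GREM1 differed by 0.78 ± 0.14 on the log2 scale (SE, adjusted p = 0.00346): the changes were 1.37 in Sayeok-tang and 0.59 in Bojungikgi-tang. CXCL5 differed by 0.65 ± 0.055 (adjusted p = 9.21e-10), with changes of 0.96 and 0.30. MPV17L, a mitochondrial or peroxisomal membrane protein of the MPV17 family, differed by 0.61 ± 0.14 (adjusted p = 0.0345), with changes of 0.66 and 0.058. NECAB2, a neuronal calcium-binding protein, differed by −0.81 ± 0.18 (adjusted p = 0.0275), with changes of −0.48 and 0.32. KRT4 differed by −0.61 ± 0.11 (adjusted p = 0.00388), with changes of −0.80 and −0.19. CAMK1D, a calmodulin-dependent kinase, differed by −0.51 ± 0.12 (adjusted p = 0.0358), with changes of −0.49 and 0.014. CXCL5 kept its call without each of the 10 libraries in turn. GREM1 was lost without low-dose Bojungikgi-tang library 3 (0.0771) and KRT4 without that library (0.0548) or high-dose Bojungikgi-tang library 2 (0.066), and MPV17L, NECAB2 and CAMK1D were each lost in 7 or 8 of the 10.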

How the results depend on the processing

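With 2 Bojungikgi-tang libraries a dose, leaving out a library leaves 1, which is then assumed to vary like the other groups. The 343 calls at 500 µg/mL ranged from 190 to 244 without 1 library (190 without Bojungikgi-tang library 3, 208 without library 2), and were 439 unfiltered, 371 in a fit of the 5 libraries, 301 with all 60 libraries fitted together, 259 with DESeq2 and 343 with relative log expression factors. All 343 kept their direction under each. The libraries of the formulas did not overlap in 342 of them, which left little room for a turn. Nothing is therefore read from the kept direction, or from the lack of reversals given below. The 31 calls at 100 µg/mL were 87 with no filter, 48 in a fit of the libraries of the comparison and 3 to 21 without 1 library. The 3 at 20 µg/mL were 25, 28 and 0 to 2 in the same order, 0 in a fit of all 60 libraries, 2 by DESeq2 and 1 with relative log expression factors. The 46 genes whose dose change differed were 92, 73 and 18 to 40. Against vehicle, the 3164 of Sayeok-tang were 2227 to 3148 without 1 library, and the 622 of Bojungikgi-tang were 205 to 755 without 1 library, 401 in a fit of all 60 and 133 in a fit of the 5 libraries. The cause of these shifts was not tested. Some named genes lost their call at 500 µg/mL under alternatives other than those given with them above. Among these, DESeq2 did not call SERPINB8 (adjusted p = 0.0836), KLF9 (0.0966), PDK4 (0.076) or PLIN2 (0.0879). With all 60 libraries fitted together, edgeR did not call ENSG00000219410 (0.496), AKR1C3 (0.2455) or KRT7 (0.263). Of 112 called genes that the naming rule or a list gave, 47 kept their call under every alternative; 1028 of 1229 values kept it, 201 lost it and 0 reversed. With the replicate number as a block, counts were 328, 24, 2 and 54 at 500, 100 and 20 µg/mL and for the dose change, and 3244 and 728 against vehicle. Same-numbered libraries of the formulas had correlations of 0.006 and −0.03 at 500 µg/mL, −0.001 and 0.206 at 100 µg/mL and 0.046 and 0.054 at 20 µg/mL. With 2 Bojungikgi-tang libraries a dose, crossed numbers give values of the same size with the sign turned. These correlations therefore cannot settle whether the numbers stand for pairs. The numbers were not taken as pairs in the main fit.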
